A study of Homo sapiens with 12 samples.

Results

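The transcripts described here are 36 genes of the NF-kB system, taken as a list of symbols: the factors themselves, their inhibitors, and the chemokines, cytokines and effector genes that they are known to drive. They were looked up by symbol and NCBI gene ID in the tables that compare each hairpin with the control, and 30 of the 36 were found there. All 30 also passed the filter on low counts, among 15592 genes tested and 20433 genes listed in at least 1 library. The other 6 symbols (CCL2, CCL20, IL1B, CSF3, TNF and PTGS2) were in no comparison table and count as absent by the rule. Their gene IDs were found in the files of the single libraries through a RefSeq table, at counts too low to test.

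NF-kB is a family of dimers built from RELA, RELB and REL, which carry the activating domain, and from NFKB1 and NFKB2, which are made as precursors. Inhibitor proteins such as the products of NFKBIA and NFKBIE hold the dimers in the cytoplasm until a kinase complex marks them for destruction. The freed dimers then switch on chemokines, cytokines, survival genes and their own inhibitors, so that the response shuts itself off. In lung epithelium the pathway is known for calling in neutrophils during infection, and lung tumours often keep it active.

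RNA was sequenced after poly-A selection from 12 libraries of H1975, a human cell line that the submitters label as non-small cell lung cancer. Cells carried a doxycycline-inducible control hairpin, with the genotype given as wild type, or 1 of the inducible hairpins sh-A, sh-B or sh-C, for which the genotype reads KAT5 knockdown. KAT5 (TIP60) is the catalytic subunit of the NuA4 histone acetyltransferase complex. All 4 groups, the control included, received doxycycline at 0.5 µg/ml for 2 days and had 3 libraries each, numbered 1 to 3 (control and sh-C) or 3 to 5 (sh-A and sh-B). Whether a hairpin line was a clone or a pool is not given in the labels, nor is it stated whether a group's libraries stem from cultures of their own. The p-values therefore measure only the spread between these libraries, which may be technical.

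Expected counts, which share ambiguous fragments between genes, summed to between 15631504 and 28073366 per library. Levels are given as CPM (counts scaled to library size), and changes as log2 fold changes with their standard error (SE) from edgeR. A gene was called when its p, adjusted over all genes tested, was below 0.05. KAT5 itself was at 28.9 ± 2.46 CPM in the control (SD, n = 3), 19.4 ± 0.626 with sh-A, 13.6 ± 0.988 with sh-B and 7.92 ± 0.535 with sh-C, a log2 change of -0.58, -1.09 and -1.87. Within their own groups, sh-C 1, sh-B 3 and sh-A 3 lay farthest from the other libraries of the hairpin over all genes, and counts of members are given with and without them. A further 118 transcripts were picked for lying below 0.3 CPM in every library outside sh-A and above a mean of 3 CPM in sh-A. They summed to 2145 CPM in sh-A 3 and to 388 and 397 CPM in sh-A 4 and 5. They summed to at most 4.10 CPM elsewhere, a gap set in part by the rule that picked them. Their part in the sh-A results was not tested. The epithelial markers of the line were present in every group, led by the keratin genes KRT7, KRT8 and KRT18, with a summed level of 5297 to 5543 CPM in the control, 3243 to 3552 CPM with sh-A, 4553 to 4764 CPM with sh-B and 5686 to 5962 CPM with sh-C. Of these 10 markers, 6 fell with sh-A, 4 with sh-B and 1 with sh-C by edgeR (12.3%, 15.0% and 7.16% of all genes fell). With sh-A 0 rose (1 at an unadjusted p under 0.05), and 1 rose with sh-B and 1 with sh-C. Of 12 leukocyte markers, 10 had a count, and their sum was 214.3 to 229.5 CPM in the control, 129.9 to 168.3 with sh-A, 97.4 to 116.3 with sh-B and 147.3 to 180.1 with sh-C. Most of it was CD68, at 170.1 ± 6.35 CPM in the control and 106 ± 8.75, 68.5 ± 11.2 and 116 ± 21.2 with sh-A, sh-B and sh-C. Of 7 leukocyte markers tested, 0 rose with any hairpin by edgeR (at an unadjusted p under 0.05, 0 with sh-A, 1 with sh-B and 0 with sh-C), while 1 fell with sh-A, 3 with sh-B and 3 with sh-C. Their part in the results was not tested. The defining leukocyte gene PTPRC was at 0.921 ± 0.0463 CPM in the control, 1.01 ± 0.109 with sh-A, 1.62 ± 0.484 with sh-B and 1.08 ± 0.406 with sh-C. Among the defining T cell genes, CD3D was at 0.0348 ± 0.0324 CPM in the control and at 0 with sh-A and sh-B. In RNA from bulk cultures, fewer cells that make a transcript and less of it per cell cannot be told apart.

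The promoters of several members were read from a RefSeq promoter table (assembly GRCh38.p14), which held 27 of the 36 members and spans 250 bases before to 50 after each start. The stretches below are the 150 bases before the start of 5 chemokine genes, of the complement gene CFB and of the inhibitor gene NFKBIA, because these members show the patterns described next. Capitals mark the letters that match the NF-kB consensus or a shorter kB form, GGNNNTTCC, on either strand.
CXCL8: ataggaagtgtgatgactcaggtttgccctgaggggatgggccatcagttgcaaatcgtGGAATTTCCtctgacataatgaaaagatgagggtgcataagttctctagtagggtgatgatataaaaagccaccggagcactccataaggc
CXCL1: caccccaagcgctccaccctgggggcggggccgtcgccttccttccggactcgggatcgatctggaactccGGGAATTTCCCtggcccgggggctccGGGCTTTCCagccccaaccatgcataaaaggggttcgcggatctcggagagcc
CXCL2: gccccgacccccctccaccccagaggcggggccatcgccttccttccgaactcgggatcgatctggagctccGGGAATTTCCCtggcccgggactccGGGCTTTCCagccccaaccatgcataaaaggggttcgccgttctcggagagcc
CXCL3: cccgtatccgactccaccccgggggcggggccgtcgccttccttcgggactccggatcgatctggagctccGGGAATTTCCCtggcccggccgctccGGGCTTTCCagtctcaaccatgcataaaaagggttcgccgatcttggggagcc
CXCL5: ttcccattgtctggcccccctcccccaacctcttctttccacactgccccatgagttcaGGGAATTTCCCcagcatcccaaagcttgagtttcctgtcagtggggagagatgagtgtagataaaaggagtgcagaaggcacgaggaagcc
CFB: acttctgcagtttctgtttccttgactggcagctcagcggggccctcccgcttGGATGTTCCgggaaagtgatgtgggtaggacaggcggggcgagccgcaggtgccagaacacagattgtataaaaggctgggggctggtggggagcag
NFKBIA: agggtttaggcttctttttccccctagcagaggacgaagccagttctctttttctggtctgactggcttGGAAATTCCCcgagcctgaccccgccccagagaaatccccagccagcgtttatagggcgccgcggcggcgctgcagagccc
In that assembly the stretches lie at chr4:73740419-73740568 (plus strand) for CXCL8, chr4:73869243-73869392 (plus) for CXCL1, chr4:74099196-74099345 (minus) for CXCL2, chr4:74038690-74038839 (minus) for CXCL3 and chr4:73998678-73998827 (minus) for CXCL5. The CFB stretch lies at chr6:31945945-31946094 (plus) and that of NFKBIA at chr14:35404750-35404899 (minus).

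CXCL1, CXCL2, CXCL3 and CXCL5 held the same longer match, which began 79, 78, 79 and 91 bases before the start. CXCL1, CXCL2 and CXCL3 also shared a short match that began 53 bases before the start in all of them. CXCL8 held the short form alone, 91 bases before its start, together with a match to the AP-1 motif TGANTCA that began 137 bases before it. CFB held the short form 97 bases before its start. Over the whole window and both strands, 12 of 27 members held the NF-kB consensus, against 7.09% of 27305 genes with a promoter in the table. The short form, which overlaps the consensus and was chosen after the CXCL8 sequence had been seen, was in 19 of 27 members and in 23.5% of genes. The AP-1 motif was in 4 of 27 (CXCL8, IL11, IL1A and IL1RN) and in 9.37% of genes, and the C/EBP motif TTGCNNCAA was in 0 of 27 and in 2.45% of genes. A match describes letters only, and the members were listed as NF-kB genes to begin with.

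Against the control, 29 of the 30 members were called with at least 1 hairpin (52.5% of all genes tested were), but the hairpins differed in which members moved and in which direction. The members and the other lists were chosen with earlier results of these data known. A share above that of all genes, here and below, may therefore be built in by that choice. The 29 include CXCL3 and IL1A, which were called with sh-A only and passed the low-count filter only through the sh-A libraries. With sh-A, 14 members rose and 6 fell (26.7% of all genes tested were called, 14.4% higher and 12.3% lower). With sh-B, 12 rose and 6 fell (30.1% of all genes were called, 15.0% higher and 15.0% lower). With sh-C, 12 rose and 1 fell (17.0% of all genes were called, 9.79% higher and 7.16% lower). The median log2 change of the 30 members was 0.53 for sh-A, 0.18 for sh-B and 0.38 for sh-C, against 0.02, 0.00 and 0.00 over all genes. Without the libraries sh-C 1, sh-B 3 and sh-A 3, 18 members rose and 7 fell with sh-A, 12 and 7 with sh-B, and 19 and 2 with sh-C. Calls over all genes rose as well under that omission, to 23.8% higher and 22.2% lower with sh-A, 23.6% and 23.4% with sh-B, and 22.5% and 20.3% with sh-C. The 3 comparisons share the control libraries and so are not independent.

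Called in all 3 comparisons were 5 members: CXCL8, CSF2 and SOD2 were higher each time, IL1RN was lower each time, and IER3 fell with sh-A and rose with sh-B and sh-C. A further 5 members were higher with one hairpin and lower with another (C3, CFB, IL18, RELA and TRAF1). REL was the 1 member called in none. Each library had to reach 0.435 CPM to count toward the low-count filter. CXCL3 and IL1A reached it only in the sh-A libraries, and CXCL1 in those and, by its rounded count, in sh-B 5 (0.445 CPM). All 3 passed the filter only because the sh-A libraries counted. Higher values with sh-A than in any other group were thus in part a condition of being tested. Without these 3, 11 of 27 members rose and 6 fell with sh-A, 12 were higher and 6 lower in sh-A than in sh-B, and 5 were higher and 8 lower in sh-A than in sh-C. Over all genes tested, 14.4% rose and 12.3% fell with sh-A. Against sh-B, 25.3% were higher and 22.2% lower in sh-A, and against sh-C 17.9% and 17.4%.

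**Figure D1:**
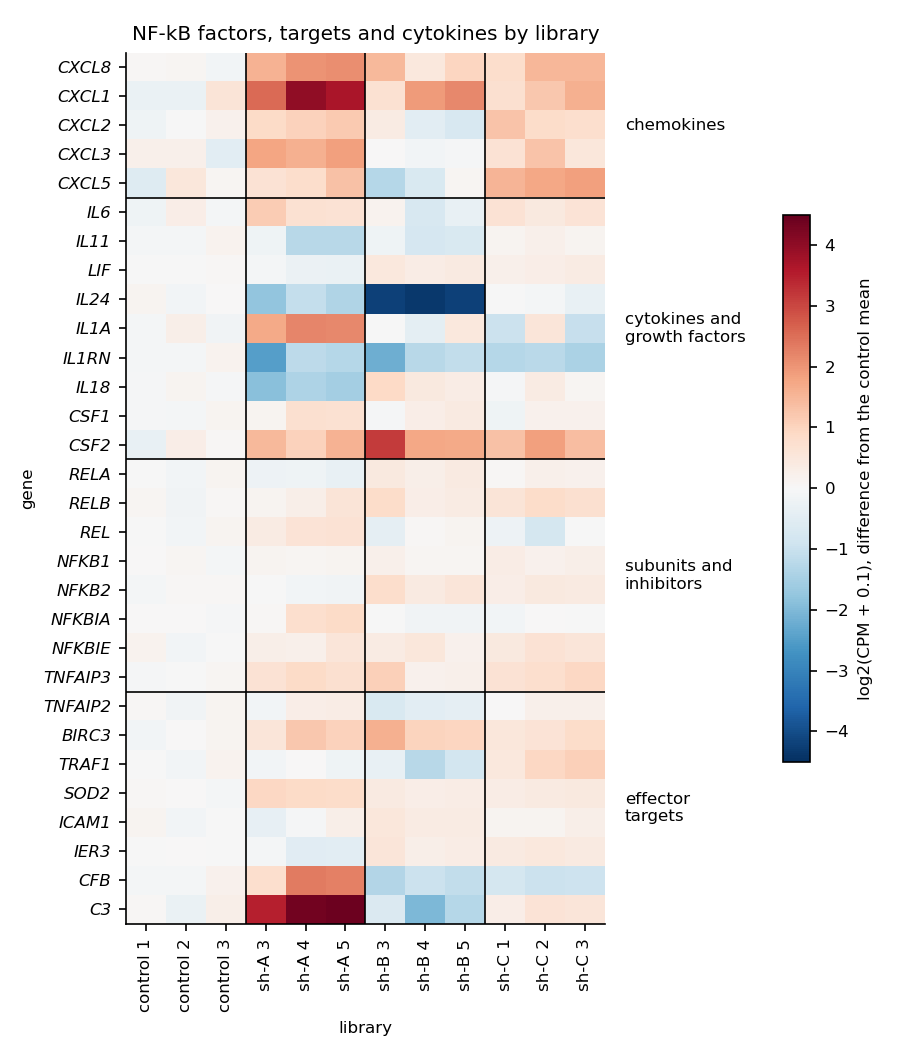
The 30 tested members (rows, grouped by role) in the 12 libraries (columns), coloured by log2(CPM + 0.1) minus the mean of the 3 control libraries (red higher, blue lower). C3, CFB and CXCL1 stand out in red in the sh-A columns, IL24 in blue in the sh-B columns and less so in the sh-A columns, and IL1RN is blue in all 9 hairpin libraries.

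**Figure D2:**
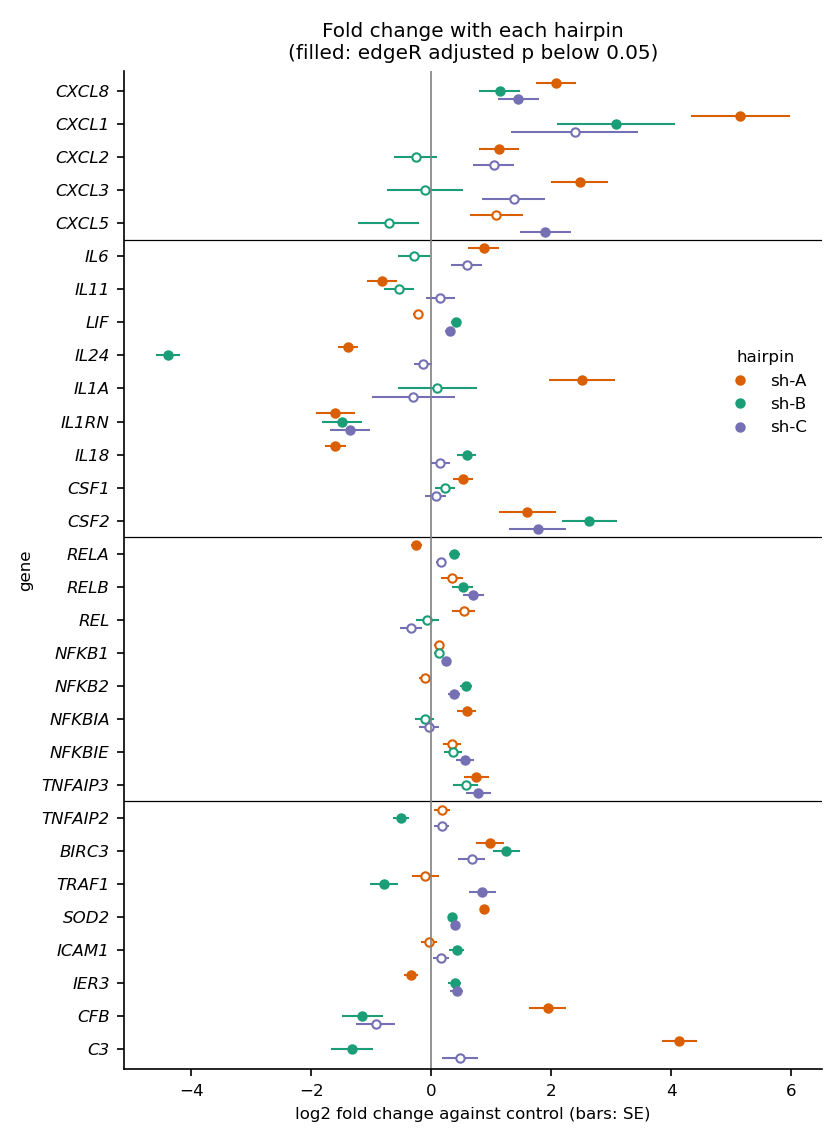
Log2 fold change of each member against the control (horizontal axis) for each hairpin, with bars of 1 SE and filled points for an edgeR adjusted p below 0.05. The chemokines lie to the right of 0 with sh-A and sh-C, while C3, CFB, IL18 and IER3 have filled points on both sides of 0.

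The 5 tested chemokines, all CXCL genes, attract neutrophils by way of the receptors CXCR1 and CXCR2, and all of them were scarce in the control. Of 5 tested, 4 rose with sh-A, 2 with sh-B and 2 with sh-C (over all genes tested, 14.4%, 15.0% and 9.79% rose). Of the 3 that did not pass the filter through sh-A alone (CXCL2, CXCL5 and CXCL8), 2 rose with sh-A, 1 with sh-B and 2 with sh-C. By edgeR 0 fell with any hairpin, and also 0 at an unadjusted p under 0.05 and 0 by DESeq2. CXCL8 (interleukin 8) was at 0.566, 0.578 and 0.484 CPM in control 1, 2 and 3, at 1.81, 2.48 and 2.62 in sh-A 3, 4 and 5, at 1.65, 0.795 and 1.16 in sh-B 3, 4 and 5 and at 1.02, 1.70 and 1.70 in sh-C 1, 2 and 3. Every hairpin library lay above every control library, although the control values rest on 13, 9 and 12 counts. The log2 change of CXCL8 was 2.08 (SE 0.33, adjusted p = 0.000848) with sh-A, 1.14 (SE 0.34, adjusted p = 0.0252) with sh-B and 1.45 (SE 0.34, adjusted p = 0.0148) with sh-C. Its call held without any 1 library for sh-A. For sh-B it was lost without control 1, 2 or 3, sh-B 3 or sh-B 5 (adjusted p up to 0.0966), and for sh-C without control 3, sh-C 2 or sh-C 3 (up to 0.0695).

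CXCL1 had counts of 0, 0 and 2 in the 3 control libraries, 15, 38 and 39 with sh-A, 2, 9 and 10 with sh-B and 2, 5 and 6 with sh-C. With 2 counts in the whole control group, the sh-A libraries stood at 40.6 times the control (95% counting interval 10.9 to 340.6), those of sh-B at 9.75 times (2.38 to 85.8) and those of sh-C at 5.96 times (1.35 to 54.4). The edgeR adjusted p was 0.000911 for sh-A, 0.0327 for sh-B and 0.136 for sh-C. CXCL1 passed the low-count filter only because the sh-A libraries counted, so its sh-A test is tilted toward a higher value. The sh-B call was lost without control 1 or 2, sh-B 4 or sh-B 5 (up to 0.111). The fitted log2 change depends on the small value added to a count of 0: it was 5.15 with sh-A and 3.08 with sh-B, and 7.87 and 5.80 without control 3, which held both control counts. These intervals cover counting error only.

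CXCL2 was at 0.566, 0.642 and 0.766 CPM in the control libraries, 1.27, 1.46 and 1.61 with sh-A, 0.873, 0.438 and 0.356 with sh-B and 1.73, 1.22 and 1.16 with sh-C. It rose with sh-A by 1.13 (SE 0.33, adjusted p = 0.0255), a call lost without any 1 of the 3 controls or without sh-A 4 or 5 (up to 0.101). With sh-C the values also lay above every control library, but the log2 change of 1.04 (SE 0.34, adjusted p = 0.0515) missed the threshold. With sh-B the values overlapped the control (-0.26 (SE 0.36, adjusted p = 0.634)). The sh-C change passed the threshold when only control and sh-C libraries were fitted.

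CXCL3 was at 0.131, 0.128 and 0.0403 CPM in the control, 0.575, 0.486 and 0.598 with sh-A, 0.0970, 0.0795 and 0.0891 with sh-B and 0.203, 0.370 and 0.178 with sh-C. It rose with sh-A by 2.47 (SE 0.48, adjusted p = 0.0027), while the changes with sh-B (-0.11 (SE 0.63, adjusted p = 0.947)) and sh-C (1.37 (SE 0.53, adjusted p = 0.0918)) were not called. CXCL3 passed the low-count filter through the sh-A libraries alone, so its sh-A test is tilted toward a higher value. CXCL5 was at 0.218, 0.578 and 0.403 CPM in the control, 0.657, 0.729 and 1.08 with sh-A, 0.0970, 0.199 and 0.401 with sh-B and 1.27, 1.48 and 1.61 with sh-C. Here sh-C gave the highest libraries, a rise of 1.90 (SE 0.43, adjusted p = 0.0127) that was lost without control 1 or 3 or without sh-C 2 or 3 (up to 0.0578). The sh-A libraries also lay above the control, at 1.08 (SE 0.44, adjusted p = 0.088), which passed the threshold without sh-A 3, and the sh-B value was -0.71 (SE 0.51, adjusted p = 0.323). CXCL1, CXCL2 and CXCL3 are close copies of each other, so the split of reads between them by the authors' counting is uncertain.

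**Figure D3:**
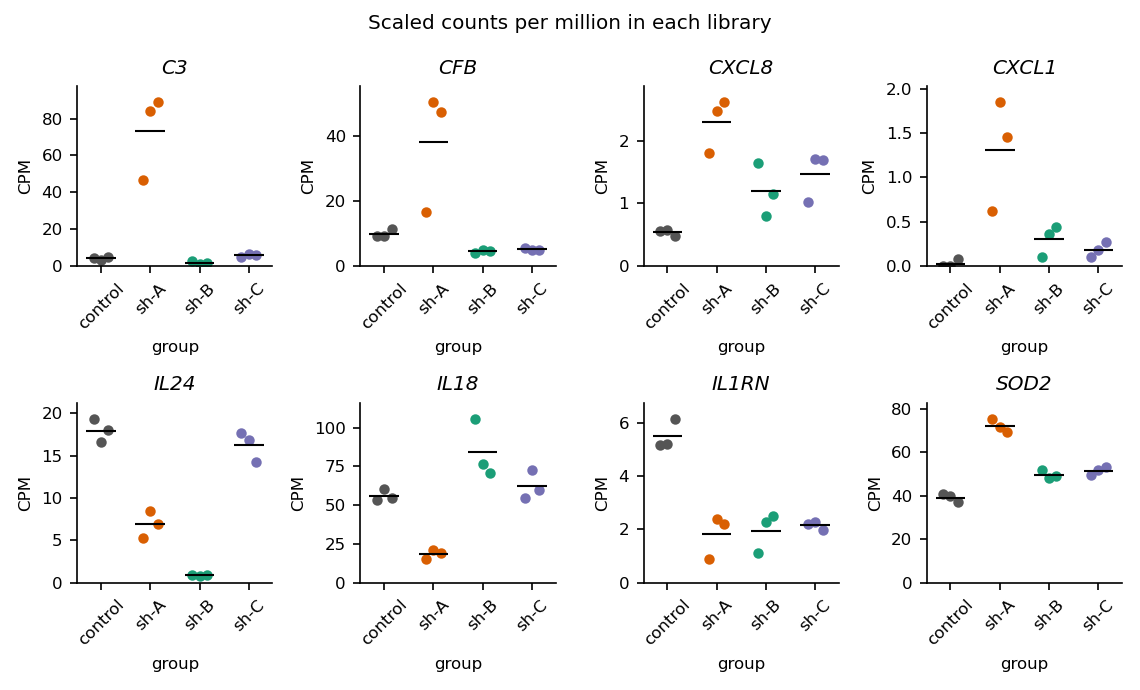
CPM (vertical axis, linear, from 0) of 8 members in each library, with a line at the mean of the 3 libraries of a group. All 3 sh-A points of C3, CFB, CXCL8, CXCL1 and SOD2 lie above every control point, and those of IL24, IL18 and IL1RN lie below every control point.

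Among cytokines and growth factors, 9 were tested: 4 rose and 4 fell with sh-A, 3 rose and 2 fell with sh-B, and 2 rose and 1 fell with sh-C. The share called was 88.9%, 55.6% and 33.3%, against 26.7%, 30.1% and 17.0% of all genes. Without IL1A, which passed the low-count filter only through sh-A, 3 of 8 rose and 4 fell with sh-A. IL24, a cytokine of the interleukin 10 family, showed the largest fall of any member. It was at 19.3, 16.6 and 18.0 CPM in the control, 5.22, 8.50 and 6.95 with sh-A, 0.873, 0.795 and 0.891 with sh-B and 17.7, 16.9 and 14.2 with sh-C. The sh-B libraries lay 21.0-fold below the control (-4.39 (SE 0.20, adjusted p = 7.12e-08)) and the sh-A libraries 2.62-fold below (-1.39 (SE 0.16, adjusted p = 9.04e-05)), while sh-C overlapped it (-0.14 (SE 0.15, adjusted p = 0.551)). Both calls held without any 1 library. The IL24 gene overlaps FCMR in the RefSeq annotation, and since the strand setting of the counting is not given, reads of the pair may have been mixed.

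IL1RN, which encodes the antagonist that blocks the interleukin 1 receptor, was lower with every hairpin. It was at 5.18, 5.20 and 6.17 CPM in the control, 0.903, 2.38 and 2.21 with sh-A, 1.12, 2.27 and 2.49 with sh-B and 2.19, 2.30 and 1.96 with sh-C, so that the 9 hairpin libraries all lay below the 3 controls. The log2 change was -1.60 (SE 0.33, adjusted p = 0.00404) with sh-A, -1.49 (SE 0.33, adjusted p = 0.00523) with sh-B and -1.36 (SE 0.33, adjusted p = 0.0173) with sh-C. For sh-A and sh-B the call held without any 1 library, and for sh-C it was lost without control 2 or 3 or without sh-C 2 or 3 (up to 0.0751). IL1RN was called in 0 of the 3 comparisons between hairpins by edgeR, with adjusted p of 0.821, 0.625 and 0.825. The agonist gene IL1A went a different way: it was at 0.174, 0.257 and 0.161 CPM in the control, 0.862, 1.26 and 1.23 with sh-A, 0.194, 0.119 and 0.312 with sh-B and 0.0509, 0.333 and 0.0446 with sh-C. It rose with sh-A alone among the tests against control (2.51 (SE 0.55, adjusted p = 0.00536)), and sh-A was also above sh-B (2.41 (SE 0.53, adjusted p = 0.0027)) and sh-C (2.81 (SE 0.55, adjusted p = 0.0022)). The difference from sh-C was 4.39 without sh-C 2. IL1A passed the low-count filter through the sh-A libraries alone, so these tests are tilted toward a higher value with sh-A.

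IL18, an interleukin 1 family cytokine that epithelial cells store as a precursor, moved in opposite directions. Its level was 53.5, 60.4 and 54.4 CPM in the control, 15.1, 21.3 and 19.3 with sh-A, 106, 76.3 and 70.7 with sh-B and 54.4, 72.4 and 59.4 with sh-C. With sh-A it fell 3.02-fold (-1.60 (SE 0.17, adjusted p = 5.86e-05)) and no sh-A library reached the lowest control. With sh-B it rose by 0.59 (SE 0.16, adjusted p = 0.017), led by sh-B 3, without which the value was 0.39 and the call was lost, as it was without control 1 or 3 (up to 0.0665). The sh-C libraries overlapped the control (0.15 (SE 0.16, adjusted p = 0.572)).

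CSF2, the granulocyte-macrophage colony-stimulating factor gene, was at 0.261, 0.450 and 0.363 CPM in the control, 1.15, 0.826 and 1.23 with sh-A, 3.88, 1.39 and 1.38 with sh-B and 1.02, 1.52 and 1.07 with sh-C. All 9 hairpin libraries lay above the controls, and the log2 change was 1.60 (SE 0.48, adjusted p = 0.0261) with sh-A, 2.63 (SE 0.46, adjusted p = 0.00121) with sh-B and 1.77 (SE 0.47, adjusted p = 0.0258) with sh-C. The highest value by far was sh-B 3, and without it the sh-B change was 1.96, still called. The sh-A call was lost without control 1 or 3 or sh-A 5 (up to 0.101), and the sh-C call without any 1 control, sh-C 2 or sh-C 3 (up to 0.107). CSF1, the macrophage colony-stimulating factor gene, rose with sh-A by 0.53 (SE 0.17, adjusted p = 0.037), from 17.1 ± 1.34 to 24.7 ± 5.47 CPM, with sh-A 3 inside the control range. That call was lost without any 1 control or without sh-A 4 or 5 (up to 0.138), and the changes with sh-B (0.23) and sh-C (0.07) were not called.

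The other 3 tested members of this group signal through the shared receptor chain encoded by IL6ST. IL6 rose with sh-A from 1.68 ± 0.333 to 3.04 ± 0.607 CPM (SD, n = 3), by 0.87 (SE 0.26, adjusted p = 0.0257), a call lost without control 1 or 3 (up to 0.103). Its changes with sh-B (-0.29) and sh-C (0.59) were not called. IL11 fell with sh-A by -0.82 (SE 0.25, adjusted p = 0.0278): sh-A 3 was at 18.6 CPM and sh-A 4 and 5 were at 8.99 and 8.97, against 20.4, 20.2 and 24.0 in the control. Without sh-A 3 the IL11 change was -1.26, and without any 1 control or without sh-A 4 or 5 the call was lost (up to 0.0953). LIF rose with sh-B from 41.2 ± 1.22 to 54.7 ± 2.90 CPM (0.41 (SE 0.08, adjusted p = 0.00246)) and with sh-C to 51.0 ± 2.73 (0.31 (SE 0.08, adjusted p = 0.0236)). With sh-A it was at 35.3 ± 2.83 CPM (-0.22 (SE 0.08, adjusted p = 0.0595), called without sh-A 3). The sh-C call of LIF was lost without any 1 control, sh-C 2 or sh-C 3 (up to 0.103).

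The NF-kB subunits and inhibitors changed by at most 0.78 on the log2 scale against the control. Of 8 tested, 2 rose and 1 fell with sh-A, 3 rose and 0 fell with sh-B, and 5 rose and 0 fell with sh-C by edgeR. At an unadjusted p under 0.05 and by DESeq2, 0 fell with sh-B or sh-C as well. The share called was 37.5%, 37.5% and 62.5%, against 26.7%, 30.1% and 17.0% of all genes. For a list of 8, the sh-A and sh-B shares are near those of all genes. RELA, the main activating subunit, was at 81.6 ± 6.50 CPM in the control, 68.7 ± 3.83 with sh-A, 106 ± 6.46 with sh-B and 91.2 ± 6.31 with sh-C. It rose with sh-B by 0.38 (SE 0.09, adjusted p = 0.00598), a call that held without any 1 library. The small fall with sh-A of -0.25 (SE 0.09, adjusted p = 0.0497) was lost without control 1 or 3 or any 1 sh-A library (up to 0.174) and under 4 other settings of the fit (0.0509 to 0.0784), and the sh-C change was 0.16, not called. NFKB2, the precursor subunit of the non-canonical pathway, rose from 57.7 ± 3.09 CPM to 86.1 ± 11.6 with sh-B (0.58 (SE 0.10, adjusted p = 0.000957)) and to 74.6 ± 3.97 with sh-C (0.37 (SE 0.10, adjusted p = 0.024)). With sh-A it was at 53.4 ± 3.01 CPM (-0.11 (SE 0.10, adjusted p = 0.432)).

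RELB, the partner of NFKB2, was at 5.05 ± 0.484 CPM in the control and rose to 7.28 ± 1.57 with sh-B (0.52 (SE 0.18, adjusted p = 0.0423)) and to 8.23 ± 0.745 with sh-C (0.70 (SE 0.18, adjusted p = 0.0195)). The sh-B rise of RELB was 0.33 and not called without sh-B 3, and it was also lost without any 1 control or sh-B 5 (up to 0.162). The sh-A value for RELB was 0.34, not called. NFKB1, precursor of the p50 subunit, was called with sh-C only, at 0.25 (SE 0.08, adjusted p = 0.0391), against 0.12 with sh-A and 0.13 with sh-B. The sh-C calls of RELB, NFKB1 and NFKB2 were lost without 1 library in 4, 6 and 5 cases (control 2, control 3, sh-C 2 and sh-C 3 for all, control 1 for NFKB1 and NFKB2, and sh-C 1 for NFKB1), at adjusted p up to 0.0858, 0.151 and 0.0981. REL was higher than every control library in the sh-A libraries, at 15.7 ± 1.58 against 10.8 ± 0.922 CPM, but its change of 0.54 (SE 0.19, adjusted p = 0.0529) missed the threshold, passing it without sh-A 3. With sh-B and sh-C, REL stood at -0.07 and -0.34.

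Among the inhibitors, NFKBIA is a direct feedback target that encodes IkB-alpha. It was at 32.7, 33.1 and 31.3 CPM in the control and at 33.3, 54.7 and 58.2 in sh-A 3, 4 and 5, a rise of 0.59 (SE 0.16, adjusted p = 0.0162) carried by sh-A 4 and 5. Without either of those, or without control 1 or 3, the call was lost (up to 0.0712), and without sh-A 3 the value was 0.80. The sh-B and sh-C libraries were near the control, with changes of -0.11 and -0.04. TNFAIP3 encodes A20, an enzyme that edits ubiquitin to shut the pathway off. It rose from 6.16 ± 0.361 CPM to 10.4 ± 0.730 with sh-A (0.75 (SE 0.21, adjusted p = 0.0185)) and to 10.6 ± 1.10 with sh-C (0.78 (SE 0.21, adjusted p = 0.0249)). With sh-B it was at 13.2, 7.12 and 7.21 CPM in sh-B 3, 4 and 5, above every control but with 1 high library (0.57 (SE 0.21, adjusted p = 0.0595), called without sh-B 4 or sh-B 5).

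The TNFAIP3 call was lost for sh-A without control 1, control 2 or sh-A 4 (up to 0.0678), and for sh-C without any 1 control, sh-C 2 or sh-C 3 (up to 0.0969). Its gene overlaps WAKMAR2, whose reads may have been mixed with its own if strand was not used. NFKBIE, a second feedback inhibitor gene, rose with sh-C by 0.56 (SE 0.15, adjusted p = 0.0275) to 5.59 ± 0.428 CPM from 3.79 ± 0.364. The NFKBIE call was lost without control 2 or 3 or without sh-C 2 or 3 (up to 0.116), and its values of 0.34 with sh-A and 0.36 with sh-B were not called.

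**Figure D4:**
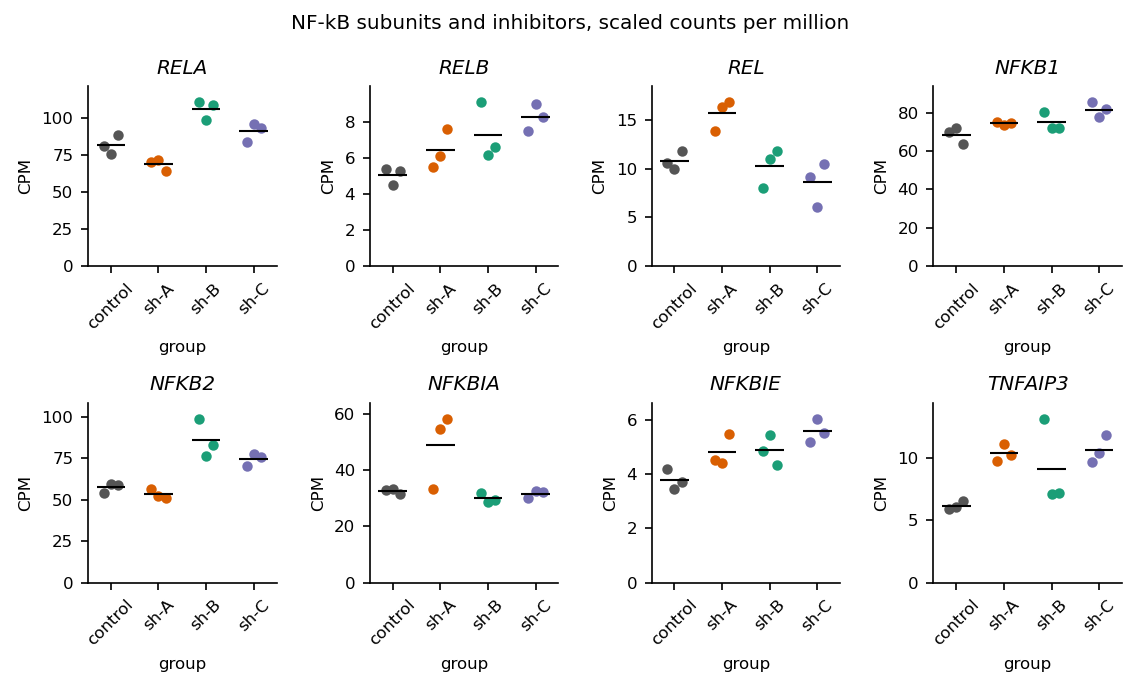
CPM (vertical axis, linear, from 0) of the 8 NF-kB subunit and inhibitor genes in each library, with a line at the mean of 3 libraries. All 3 sh-B points of RELA and NFKB2 lie above every control point, and NFKBIA is raised in 2 of the 3 sh-A libraries.

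Of the 8 effector genes tested, 4 rose and 1 fell with sh-A, 4 rose and 4 fell with sh-B, and 3 rose and 0 fell with sh-C by edgeR (1 fell at an unadjusted p under 0.05 and 1 by DESeq2, CFB). The share called was 62.5%, 100% and 37.5%, against 26.7%, 30.1% and 17.0% of all genes. The complement genes C3 and CFB, which encode the central component and the alternative-pathway protease of complement, were far higher with sh-A than in any other group. C3 was at 4.23, 3.27 and 4.84 CPM in the control, 46.9, 83.9 and 88.8 with sh-A, 2.57, 0.915 and 1.60 with sh-B and 5.04, 6.30 and 5.93 with sh-C. The sh-A libraries were 17.5-fold above the control (4.13 (SE 0.29, adjusted p = 3.75e-06)), and the lowest of them was above every library outside sh-A. With sh-B, C3 fell below every control library (-1.32 (SE 0.35, adjusted p = 0.0138)), a call lost without control 3 or sh-B 4 (up to 0.0581). With sh-C the change of 0.47 (SE 0.30, adjusted p = 0.307) was not called, although all 3 libraries lay above the control.

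CFB was at 9.32, 9.25 and 11.3 CPM in the control, 16.6, 50.5 and 47.5 with sh-A, 3.93, 5.01 and 4.50 with sh-B and 5.65, 4.96 and 5.09 with sh-C. It rose with sh-A by 1.94 (SE 0.31, adjusted p = 0.00093), with sh-A 3 well under sh-A 4 and 5, and the value was 2.29 without sh-A 3. With sh-B it fell by -1.15 (SE 0.34, adjusted p = 0.0218), lost without control 3, sh-B 3 or sh-B 5 (up to 0.0754). The sh-C libraries were also below every control, but the change of -0.93 (SE 0.33, adjusted p = 0.0722) missed the threshold in this fit and passed it with DESeq2 (adjusted p = 0.0208). Library sh-A 3 was the lowest of the 3 sh-A libraries for C3, CFB, CXCL8, CXCL1, IL1A and NFKBIA alike. For IL6 and SOD2, which also rose with sh-A, it was the highest of the 3.

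SOD2, the mitochondrial superoxide dismutase gene, had the most uniform rise. It was at 40.6, 39.7 and 37.1 CPM in the control, 75.5, 71.6 and 69.6 with sh-A, 52.0, 48.3 and 48.9 with sh-B and 49.4, 52.0 and 53.3 with sh-C. The log2 change was 0.88 (SE 0.07, adjusted p = 7.81e-06) with sh-A, 0.35 (SE 0.07, adjusted p = 0.00346) with sh-B and 0.40 (SE 0.07, adjusted p = 0.00518) with sh-C, and all 3 calls held without any 1 library. SOD2 overlaps ACAT2, WTAP and SOD2-OT1 in the RefSeq annotation, and the strand setting is not given. BIRC3, which encodes the ubiquitin ligase cIAP2, was at 2.40, 2.70 and 2.86 CPM in the control, 3.86, 6.32 and 5.57 with sh-A, 8.29, 5.37 and 5.25 with sh-B and 3.76, 4.08 and 4.82 with sh-C. It rose with sh-A (0.98 (SE 0.23, adjusted p = 0.00793)) and sh-B (1.25 (SE 0.23, adjusted p = 0.00169)) in calls that held without any 1 library. The sh-C change of 0.67 (SE 0.23, adjusted p = 0.0671) was not called, and it passed the threshold when only control and sh-C libraries were fitted.

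TRAF1, an adaptor of tumour necrosis factor receptors, was at 4.66, 4.30 and 5.32 CPM in the control, 4.39, 4.76 and 4.19 with sh-A, 3.78, 1.95 and 2.63 with sh-B and 6.66, 9.11 and 10.00 with sh-C. It rose with sh-C by 0.85 (SE 0.22, adjusted p = 0.0218) and fell with sh-B by -0.79 (SE 0.23, adjusted p = 0.0217), while sh-A overlapped the control (-0.10). The sh-C call was lost without any 1 control, sh-C 2 or sh-C 3 (up to 0.0971), and the sh-B call without control 1, control 3, sh-B 4 or sh-B 5 (up to 0.0839). TRAF1 overlaps PHF19, whose reads may have been mixed with its own. IER3, an immediate early survival gene, fell with sh-A from 45.8 ± 1.06 to 36.1 ± 6.20 CPM (-0.34 (SE 0.11, adjusted p = 0.0417)) and rose to 60.1 ± 6.40 with sh-B (0.39 (SE 0.11, adjusted p = 0.021)) and to 61.4 ± 2.35 with sh-C (0.42 (SE 0.11, adjusted p = 0.0255)). All 3 IER3 calls were lost without 1 library in some cases: any 1 control for each, and sh-A 4 or 5, sh-B 3, or sh-C 2 or 3 (up to 0.138, 0.0755 and 0.101).

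TNFAIP2, the member with the highest level per length in the control, was at 317 ± 28.4 CPM in the control and fell to 223 ± 21.8 with sh-B (-0.51 (SE 0.13, adjusted p = 0.00932)), a call that held without any 1 library. It was at 359.6 ± 57.9 CPM with sh-A (0.18, called without sh-A 3) and 355 ± 31.4 with sh-C (0.17). ICAM1, the adhesion receptor to which leukocytes bind, rose with sh-B from 18.0 ± 1.45 to 24.1 ± 1.23 CPM (0.42 (SE 0.13, adjusted p = 0.0346)). That call was lost without control 2 or 3 or any 1 sh-B library (up to 0.119), and ICAM1 was not called with sh-A (-0.04) or sh-C (0.16).

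The hairpins were then tested against each other, since a call with one and not with another does not show a difference. Between sh-A and sh-B, 15 members were higher and 6 lower in sh-A (47.5% of all genes were called, 25.3% higher and 22.2% lower). Of the chemokines, CXCL8 (0.94 (SE 0.30)), CXCL2 (1.39 (SE 0.34)) and CXCL5 (1.80 (SE 0.46)) were higher in sh-A than in sh-B. CXCL1 and CXCL3 were also called higher there, but they passed the low-count filter only through the sh-A libraries. The largest differences were C3 at 5.46 (SE 0.33, adjusted p = 1.98e-07), CFB at 3.09 (SE 0.33, adjusted p = 1.44e-05) and IL24 at 3.00 (SE 0.20, adjusted p = 3.98e-07), and IL18 was lower in sh-A by -2.18 (SE 0.17, adjusted p = 1.23e-06). RELA (-0.63 (SE 0.09)), NFKB2 (-0.69 (SE 0.10)), LIF (-0.63 (SE 0.08)) and IER3 (-0.73 (SE 0.11)) were also lower in sh-A. Same-numbered sh-A and sh-B libraries deviated together, though numbers 4 and 5 did so across numbers too, and with the number as a replicate block the CXCL8 and TRAF1 differences missed the threshold (adjusted p = 0.0602 and 0.0579, against 0.0211 and 0.0268 without it). The call of CXCL8 was also lost without sh-A 4, sh-A 5, sh-B 4 or sh-B 5 (up to 0.0904), that of TRAF1 without sh-A 4, sh-B 4 or sh-B 5 (up to 0.111) and that of REL (0.61) without sh-A 4, sh-A 5 or sh-B 3 (up to 0.0733).

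Between sh-A and sh-C, 7 members were higher and 8 lower in sh-A (35.3% of all genes were called, 17.9% higher and 17.4% lower). All 15 calls held without any 1 library, and 2 of the 7 higher members, CXCL1 and IL1A, passed the low-count filter only through sh-A. C3 (3.66 (SE 0.28)), CFB (2.87 (SE 0.33)), IL1A (2.81 (SE 0.55)), CXCL1 (2.76 (SE 0.62)), REL (0.87 (SE 0.19)), NFKBIA (0.63 (SE 0.16)) and SOD2 (0.49 (SE 0.07)) were higher in sh-A. IL18 (-1.75 (SE 0.17)), IL24 (-1.24 (SE 0.16)), IL11 (-0.97 (SE 0.25)), TRAF1 (-0.95 (SE 0.22)), IER3 (-0.77 (SE 0.11)), LIF (-0.53 (SE 0.08)), NFKB2 (-0.48 (SE 0.10)) and RELA (-0.41 (SE 0.09)) were lower.

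Between sh-B and sh-C, edgeR called 0 members higher in sh-B and 7 lower (27.9% of all genes were called, 13.0% higher and 14.9% lower). At an unadjusted p under 0.05, 3 were higher, and DESeq2 called 2 higher. The lower members were IL24 at -4.25 (SE 0.20, adjusted p = 1.11e-07), CXCL5 at -2.61 (SE 0.45, adjusted p = 0.00113), C3 at -1.79 (SE 0.34, adjusted p = 0.00209), TRAF1 at -1.63 (SE 0.23, adjusted p = 0.000261), CXCL2 at -1.30 (SE 0.34, adjusted p = 0.0131), IL6 at -0.88 (SE 0.26, adjusted p = 0.026) and TNFAIP2 at -0.67 (SE 0.13, adjusted p = 0.00195). The calls of CXCL2 (without sh-B 4, sh-B 5 or sh-C 1) and IL6 (without sh-B 4, sh-B 5, sh-C 1 or sh-C 3) were lost at adjusted p up to 0.0653 and 0.112. Of the 8 subunits and inhibitors, edgeR called 0, with 1 at an unadjusted p under 0.05 and 1 by DESeq2 (RELA). Without sh-C 1, sh-B 3 and sh-A 3, 1 member was higher and 11 were lower in sh-B (21.5% and 24.9% of all genes).

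The genes that feed into NF-kB, its receptors and further targets were taken from lists that do not overlap the 36 members. Of 35 genes of the signalling chain, 3 rose and 7 fell with sh-A, 7 rose and 5 fell with sh-B, and 6 rose and 1 fell with sh-C. That is 28.6%, 34.3% and 20.0% of the list, near the 26.7%, 30.1% and 17.0% of all genes called, so the counts say nothing about the list. MALT1, a protease that relays signals to the kinase complex, fell with sh-A from 67.4 ± 2.18 to 35.5 ± 1.17 CPM (-0.92 (SE 0.07, adjusted p = 5.02e-06)), and MAP3K14, the kinase of the non-canonical branch, by -0.73 (SE 0.10, adjusted p = 0.000297). NFKBIZ, an atypical nuclear IkB protein, rose with sh-A (0.93 (SE 0.19, adjusted p = 0.00396)) and fell with sh-B (-0.72 (SE 0.20, adjusted p = 0.0178)). The receptor kinase gene IRAK1 rose with sh-B (0.50 (SE 0.07)) and sh-C (0.54 (SE 0.07)), and IKBKG, the regulatory subunit of the IkB kinase complex, rose with sh-C (0.42 (SE 0.08)).

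Of 15 tested receptors that act through NF-kB, 2 rose and 5 fell with sh-A, 3 rose and 4 fell with sh-B, and 0 rose and 1 fell with sh-C by edgeR (1 and 3 at an unadjusted p under 0.05). The share called was 46.7% with sh-A, 46.7% with sh-B and 6.67% with sh-C, against 26.7%, 30.1% and 17.0% of all genes. TLR2, 1 of the 2 that rose with sh-A, passed the low-count filter only through sh-A. With sh-B, CD40 fell by -1.43 (SE 0.14, adjusted p = 2.97e-05) and the interleukin 18 receptor gene IL18R1 by -3.27 (SE 0.47, adjusted p = 0.000344), from 1.47 ± 0.0693 to 0.152 ± 0.126 CPM. With sh-A, TNFRSF1A, the main tumour necrosis factor receptor gene, fell by -0.42 (SE 0.11). Of 11 tested receptors for the member cytokines, 0 rose and 2 fell with sh-A, 1 rose and 1 fell with sh-B, and 0 were called with sh-C by edgeR (at an unadjusted p under 0.05, 1 rose and 3 fell with sh-A, and 0 rose and 2 fell with sh-C). The calls made up 18.2% of that list with sh-A and also with sh-B, below the share of all genes. IL6ST, the signal chain shared by IL6, IL11 and LIF, fell with sh-A from 115 ± 4.38 to 56.9 ± 3.92 CPM (-1.01 (SE 0.08, adjusted p = 1.07e-05)) and rose with sh-B (0.49 (SE 0.08, adjusted p = 0.000992)).

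Of 28 further NF-kB targets tested, 4 rose and 9 fell with sh-A, 3 rose and 8 fell with sh-B, and 5 rose and 3 fell with sh-C. The share called was 46.4%, 39.3% and 28.6%, against 26.7%, 30.1% and 17.0% of all genes. The share that rose was 14.3% with sh-A, 10.7% with sh-B and 17.9% with sh-C, against 14.4%, 15.0% and 9.79% of all genes. The share that fell was 32.1%, 28.6% and 10.7%, against 12.3%, 15.0% and 7.16% of all genes. LCN2, an iron-binding acute phase gene, was at 0.174, 0.193 and 0.161 CPM in the control and 3.57, 11.1 and 13.8 in sh-A 3, 4 and 5 (5.73 (SE 0.63, adjusted p = 7.61e-05)), with sh-A 3 the lowest of the 3. LCN2 and SAA1 passed the low-count filter only through the sh-A libraries, and of the other 26 targets 2 rose and 9 fell with sh-A. BCL2L1 (-0.90 (SE 0.09)), PLAUR (-0.66 (SE 0.11)) and GADD45B (-0.65 (SE 0.11)) fell with sh-A. PLAU rose with sh-B (0.89 (SE 0.11)) and IRF1 fell (-0.58 (SE 0.09)).

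AP-1 and C/EBP factors bind many of the same promoters, and of 13 tested, 3 rose and 1 fell with sh-A, 2 rose and 0 fell with sh-B, and 4 rose and 0 fell with sh-C by edgeR. At an unadjusted p under 0.05, 2 fell with sh-B and 0 with sh-C. The share called was 30.8%, 15.4% and 30.8%, against 26.7%, 30.1% and 17.0% of all genes. The AP-1 gene FOSL1 went from 334 ± 28.2 CPM in the control to 120.5 ± 24.4 with sh-A (-1.47 (SE 0.15, adjusted p = 4.44e-05)), 619.8 ± 118 with sh-B (0.89 (SE 0.15, adjusted p = 0.000906)) and 594 ± 12.2 with sh-C (0.83 (SE 0.15, adjusted p = 0.00519)). CEBPA rose with sh-A (1.60 (SE 0.24, adjusted p = 0.000569)), and JUN with sh-B (0.74 (SE 0.23, adjusted p = 0.0301)) and sh-C (1.15 (SE 0.23, adjusted p = 0.00832)). Of 10 genes that act on cytokine mRNA decay, 1 rose and 2 fell with sh-A and 1 rose with sh-C by edgeR. With sh-B, 0 were called (also 0 at an unadjusted p under 0.05). That is 30.0% called with sh-A and 10.0% with sh-C, against 26.7% and 17.0% of all genes. ZC3H12A, the nuclease Regnase-1 that degrades IL6 mRNA and is itself an NF-kB target, rose with sh-A (1.20 (SE 0.19, adjusted p = 0.00088)).

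Levels between genes were compared per length, as FPKM, which divides fragments by transcript length and library depth. In the control, TNFAIP2 led with 75.9 ± 7.73 FPKM (SD, n = 3), ahead of IL18 at 49.4 ± 2.85, IER3 at 37.3 ± 0.389, RELA at 31.8 ± 2.85 and SOD2 at 29.5 ± 1.31. Next came NFKBIA at 20.8 ± 0.318, NFKB2 at 18.5 ± 1.08 and NFKB1 at 16.8 ± 0.836 FPKM. At the other end, CXCL8 was at 0.320 ± 0.0265 FPKM, CXCL3 at 0.0967 ± 0.0493 and CXCL1 at 0.0233 ± 0.0404. C3 was at 0.807 ± 0.166 FPKM in the control and 15.0 ± 4.99 with sh-A, which is still below the level of NFKBIA in the control.

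The 6 untested members were near the limit of detection. CSF3 had counts of 0, 0 and 0 in the control, 2, 7 and 10 in sh-A 3, 4 and 5, 0, 1 and 0 with sh-B and 0, 0 and 1 with sh-C. Set against a floor of 3 counts over the control group, the 19 CSF3 counts with sh-A came to 5.59-fold. That value takes the 19 counts as exact and is not a lower limit. PTGS2, the inducible cyclooxygenase gene, had counts of 0, 1 and 1 in the control, 17, 4 and 10 with sh-A, 0, 1 and 0 with sh-B and 3, 1 and 1 with sh-C, a ratio of sh-A to control of 13.7 (counting interval 3.48 to 118.1). TNF had 3 counts in the control group, 12 with sh-A, 9 with sh-B and 13 with sh-C. IL1B had counts of 4, 4 and 6 in the control, 1, 8 and 9 with sh-A, 5, 10 and 19 with sh-B and 8, 9 and 2 with sh-C. CCL2 had 3, 1 and 1 in the control and at most 9 in any library, and CCL20 had at most 6. No test was made of these 6. The interval covers counting error only, and the floor only that of the control counts.

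The authors' deposited tables of each hairpin against the control list 30 members for sh-A, 26 for sh-B and 27 for sh-C, and their log2 ratios had the same sign as the edgeR values for every member listed. The authors' deposited table gives a log2 ratio of 4.14 for C3 with sh-A and -4.36 for IL24 with sh-B. A posterior probability of equal expression (PPEE), which is not a p-value and has another meaning than edgeR's adjusted p, was below 0.05 in the authors' deposited tables for 12 members with sh-A, 15 with sh-B and 10 with sh-C, of which edgeR also called 10, 14 and 9. Of the members listed there, edgeR called 20, 17 and 13. Its sh-A calls without such a PPEE included CFB (0.12), NFKBIA (0.68) and TNFAIP3 (0.99). With sh-A, REL (1.2e-05) and LIF (0.019) had a PPEE below 0.05 and no edgeR call.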

How the data were processed

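RNA levels came from values the authors deposited. The tools named in the submitters' processing notes are HISAT, Bowtie2 and RSEM, and the build is hg19, with versions, roles and strand setting not stated there. Each library file holds 2 values per gene as deposited: an expected count and an FPKM. The authors' comparison tables, as deposited, hold group means as a normalised signal, a log2 ratio and PPEE, by its name a posterior probability of equal expression. Columns of no sample numbered 0.

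Rounded expected counts entered edgeR 4.0.16 (R 4.3.3), with its quasi-likelihood F-test, default filter (minimum count of 10) and TMM scaling. The model had 1 mean for each of 4 groups, and the common coefficient of variation was 0.145. The Benjamini-Hochberg adjustment covered 15592 genes, and an SE is the size of the log2 fold change over the root of F. Depth of 15631504 to 28073366 per library leaves members of a few counts with wide errors. The script was tested on simulated data. Alternatives were DESeq2 1.42.0, other size factors, no filter, a minimum count of 50, a fit of only the libraries compared, a replicate block, and each library left out. A joint omission of 3 libraries was added after seeing the data.

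Same-numbered sh-A and sh-B libraries deviated together (correlations over genes 0.37, 0.16 and 0.34), a pairing taken from the numbers in the titles. Correlations across numbers were 0.21 (sh-A 4 with sh-B 5) and 0.29 (sh-A 5 with sh-B 4), and -0.40 to -0.23 where number 3 met 4 or 5, so the data set number 3 apart and do not separate 4 from 5. The members and lists were chosen with earlier results of these data known. Members called with a log2 change of at least 1 in size against the control are given in every library, and up to 4 called genes of each other list, by smallest adjusted p, could be named. IL11, NFKBIA, SOD2, TRAF1, TNFAIP3 and LCN2 are given by library outside this rule, and TLR2 and SAA1 are named for how they passed the filter, all chosen after their values were seen. Of 20433 gene IDs, 15620 were named through the comparison tables and 4734 through RefSeq.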

Additional observations from a re-analysis of the deposited data

Results flagged for a closer look

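Members called in opposite directions against the control by 2 hairpins, with a direct test between those hairpins that also passed, are listed here because the same contrast gave effects that differ between groups. Between sh-A and sh-B the log2 difference was 5.46 (SE 0.33, adjusted p = 1.98e-07) for C3 and 3.09 (SE 0.33, adjusted p = 1.44e-05) for CFB, both higher with sh-A than the control and lower with sh-B. It was -2.18 (SE 0.17, adjusted p = 1.23e-06) for IL18, -0.73 (SE 0.11, adjusted p = 0.00022) for IER3 and -0.63 (SE 0.09, adjusted p = 9.07e-05) for RELA, which fell with sh-A and rose with sh-B. IER3 also differed between sh-A and sh-C (-0.77 (SE 0.11, adjusted p = 0.00036)). TRAF1, lower with sh-B and higher with sh-C, differed between them by -1.63 (SE 0.23, adjusted p = 0.000261). In all 7 the groups of 3 libraries did not overlap. That adds little, because the 7 were picked for passing the direct test. All 7 differences held without any 1 library. The opposite calls against the control did not: in each case at least 1 of the 2 was lost without some library. With the replicate number as a block, the 5 differences between sh-A and sh-B also stayed past the threshold.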

How the results depend on the processing

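No alternative reversed the direction of any of the 94 member values called, while 18 of the 86 not called changed sign under some alternative, in no case as a call. Leaving out 1 library at a time, 917 results kept their call status, 144 lost a call and 19 gained one. Under the other settings 1018 kept it, 17 lost and 50 gained. Over these omissions the members called ranged from 8 to 17 higher and 3 to 6 lower with sh-A, 7 to 11 and 3 to 6 with sh-B, 1 to 11 and 0 to 1 with sh-C, and 0 to 1 were higher in sh-B than in sh-C. Over all genes, calls ranged from 1484 to 2094 higher with sh-B, 474 to 1694 higher and 292 to 1068 lower with sh-C, and 1316 to 2198 higher in sh-B than in sh-C. Of the calls against the control, 11 of 20 with sh-A, 9 of 18 with sh-B and 1 of 13 with sh-C (SOD2) held without each library in turn. Why calls were lost was not tested. Without sh-C 1, 11 members and 1694 of all genes rose with sh-C. At the same number of libraries, 1 member and 474 genes rose without sh-C 2, and 1 member and 541 genes without sh-C 3. At a minimum count of 50, which left 23 members, 8 rose with sh-A and 9 were higher in sh-A than in sh-B. With only the libraries compared, 3 members fell with sh-A and 2 with sh-C, where all genes gave 2542 higher and 2320 lower. DESeq2 gave 2 members lower with sh-C and 2 higher in sh-B than in sh-C. With the libraries sh-C 1, sh-B 3 and sh-A 3 all omitted, all genes gave 3743 higher and 3488 lower with sh-A, 3708 and 3680 with sh-B, 3536 and 3189 with sh-C, 4244 lower in sh-A than in sh-C, and 3385 higher and 3922 lower in sh-B than in sh-C. Members then gave 19 higher and 2 lower with sh-C, and 1 higher and 11 lower in sh-B than in sh-C.

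Control and sh-C share replicate numbers, but same-numbered libraries did not deviate together (correlations -0.13, -0.26 and 0.19). With the replicate block, 2 members fell with sh-C and 1773 genes were lower, NFKB1 lost its call (adjusted p = 0.0614), and BIRC3, CFB and CXCL2 gained one. For sh-A against sh-B the block also gained CSF1, and beyond CXCL8 and TRAF1 it changed no other member's call. No paired analysis was possible for sh-A or sh-B against the control because they share only the number 3.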
